A study of Mus musculus with 15 samples.

Results

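The genes described here are 10 members of the NF-kB system, namely 4 subunit genes with an induced or regulated level (Nfkb1, Nfkb2, Rel and Relb), 5 genes of the I-kappa-B family (Nfkbia, Nfkbie, Nfkbiz, Nfkbid and Bcl3) and Tnfaip3, which encodes the deubiquitinase A20. They were chosen by name, with earlier results of these data known, and found by matching the Ensembl IDs of the count table to mouse symbols. All 10 were present among 45232 gene IDs and all 10 passed the filter on low counts, which 17834 genes passed. RNA was sequenced from LSK cells (lineage-negative, Sca-1+, c-Kit+ marrow cells, the fraction that holds stem and early progenitor cells) of C57BL/6 mice in 5 groups of 3 libraries. WT cells were compared with CD45.2+ cells carrying JAK2 V617F and IDH2 R140Q from transplant recipients given vehicle, AG221, Rux (ruxolitinib) or both drugs (combo). In the study's methods the mutant alleles were conditional and switched on in hematopoietic cells by Mx1-Cre, and the recipients were irradiated and also received WT competitor marrow. AG221 inhibits mutant IDH2 and was given at 40 mg/kg per the labels, where the study's methods also name a higher dose. Ruxolitinib inhibits JAK1 and JAK2 and was given at 60 mg/kg, and dosing by gavage went on for 21 to 28 days, with the final dose about 1.5 hours before the mice were killed. The sources do not say what the WT mice were given, or whether a library was 1 mouse or a pool, so p-values measure the spread between these libraries.

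NF-kB is a family of dimeric transcription factors. In resting cells the dimers are held in the cytoplasm by I-kappa-B proteins such as those encoded by Nfkbia and Nfkbie, and stimuli such as TNF, IL-1 and Toll-like receptor ligands activate a kinase complex that marks these inhibitors for degradation. The freed dimers induce, among other genes, their own inhibitors and A20, so that levels of Nfkbia and Tnfaip3 transcripts are widely used as readouts of recent pathway activity. Nfkb1 and Nfkb2 encode precursors of the p50 and p52 subunits, Rel and Relb encode subunits with a transactivation domain, and Bcl3, Nfkbiz and Nfkbid encode nuclear I-kappa-B proteins that bind p50 or p52 and can raise or lower transcription. In hematopoietic stem and progenitor cells the pathway is known for inflammatory signaling and for myeloid output.

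Many of these genes are regarded as targets of NF-kB itself, so their starts were searched for the kappaB consensus, the binding motif of the family, on both strands. RefSeq promoter windows (GRCm38.p6, 250 bases before to 50 bases after a gene start) were given for 7 of the 10 members, and all 7 had a match in at least 1 window, beside 9.55% of all 27025 genes with a window. Counted by window, 9 of the 12 windows of these members (75%) and 8.46% of all 32851 windows had a match. No window was given for Nfkb1, Nfkbiz or Relb. The stretch before the start of Nfkbia, at chr12:55492648-55492787 on the minus strand, is shown because this gene had the highest level of the 10, and its match is in capitals.
Nfkbia: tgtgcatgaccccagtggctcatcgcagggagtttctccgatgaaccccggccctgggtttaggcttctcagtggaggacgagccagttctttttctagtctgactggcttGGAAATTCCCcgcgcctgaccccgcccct

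For the other members with a window, 30 bases around a match are shown on the strand of the gene, again with the match in capitals, so that the matched letters can be compared. Their places are chr10:19015403-19015432 (Tnfaip3), chr11:23771042-23771071 (Rel), chr7:30422170-30422199 (Nfkbid), chr17:45555584-45555613 (Nfkbie), chr19:46304688-46304717 (Nfkb2) and chr7:19822734-19822763 (Bcl3).
Tnfaip3: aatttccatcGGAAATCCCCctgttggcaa
Rel: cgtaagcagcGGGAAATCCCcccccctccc
Nfkbid: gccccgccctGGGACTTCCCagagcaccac
Nfkbie: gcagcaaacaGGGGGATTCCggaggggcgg
Nfkb2: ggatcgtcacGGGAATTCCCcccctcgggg
Bcl3: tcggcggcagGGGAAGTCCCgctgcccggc

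The matches of Rel, Nfkbid, Nfkb2 and Bcl3 fit the consensus on both strands, and that of Bcl3 lies just after the annotated start. A match describes the letters only. The members with a match include genes that were higher, lower and at like levels in the comparisons that follow, and the windows of Rela and Nfkbib, a subunit and an inhibitor outside the 10 genes, had no match.

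Levels are given as CPM, counts brought to a common library total after TMM scaling, and library totals ran from 18836625 to 32174287 counts, so 3 counts, the limit that a count of 0 allows, corresponded to 0.0957 to 0.157 CPM. Because the reads carried no molecular identifiers, this limit covers counting error only. Per kilobase of exon, which allows levels of different genes to be compared, Nfkbia was highest of the 10 members in every group, at 58.4 ± 9.64 CPM per kb in WT (SD, n = 3) and 268 ± 22.3 CPM per kb in vehicle-treated mutant cells. Relb and Bcl3 were the lowest in every group, with means of 2.42 and 2.10 CPM per kb in WT cells, and their ranges overlapped each other there. In WT cells the order below Nfkbia was Nfkbie, Nfkb1, Nfkbid, Rel, Nfkb2, Nfkbiz and Tnfaip3, and the neighbours Rel and Nfkb2, and Nfkbiz and Tnfaip3, overlapped. In vehicle-treated cells the order was different. Tnfaip3 at 23.9 ± 6.41 CPM per kb and Nfkbiz at 19.9 ± 6.06 CPM per kb stood between Nfkbid (29.1 CPM per kb) and Nfkb1 (18.2 CPM per kb), with each neighbour from Nfkbid down to Rel overlapping the next.

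**Figure D1:**
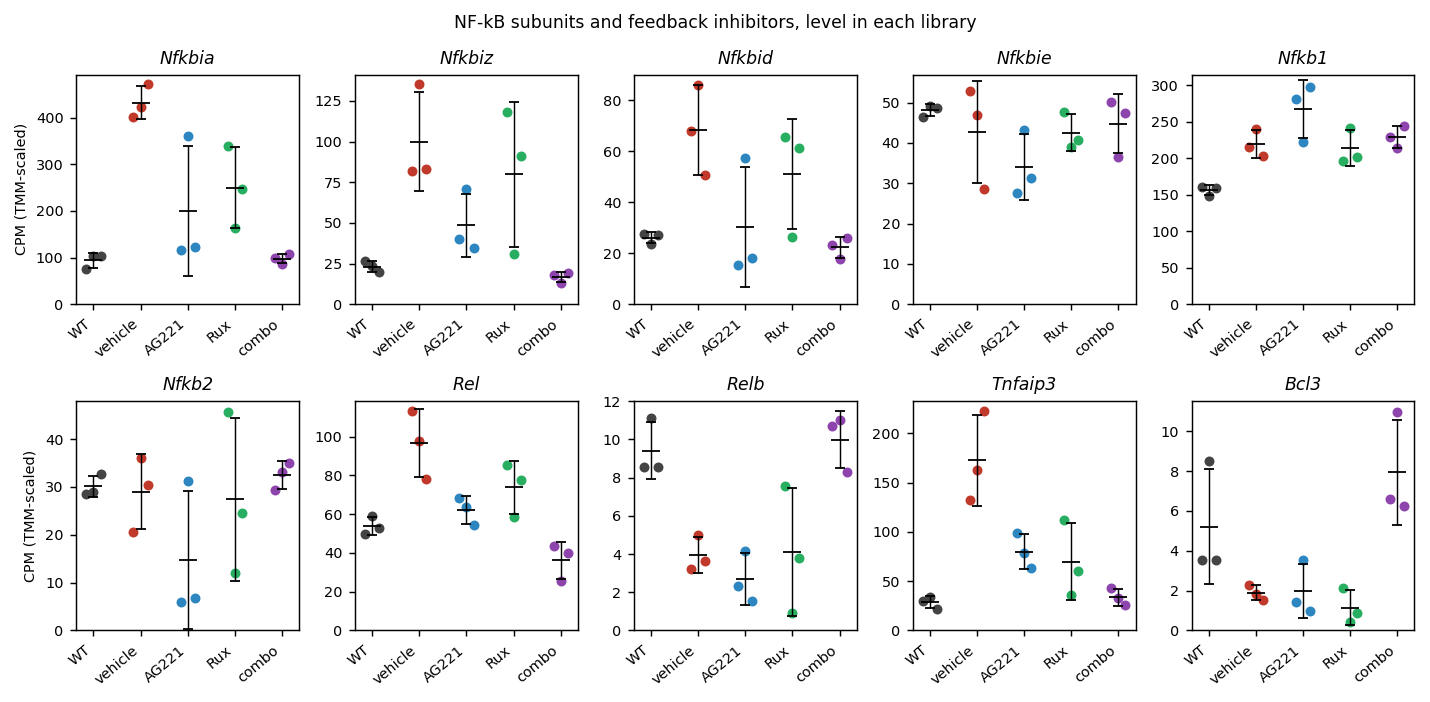
Level of each of the 10 genes in CPM (vertical axis, from 0, a separate scale for each gene) in the 15 libraries by group, with bars for the mean and SD of 3 libraries. The vehicle libraries of Nfkbia, Nfkbiz, Nfkbid, Tnfaip3, Rel and Nfkb1 lie above all WT libraries, and those of Relb and Bcl3 below them.

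Several properties of the libraries bear on all comparisons. Replicate names begin with A in the vehicle, AG221 and Rux groups and with B in the WT and combo groups, and what the letter marks is not stated. The comparisons of a treatment alone with vehicle and of combo with WT stay within a letter, and in the others the letter and the group cannot be told apart. Xist was at 455 to 511 CPM in the WT libraries and at most 19.5 CPM in the mutant ones, and Ddx3y was at most 0.101 CPM in WT and at least 124 CPM in mutant libraries, so sex and genotype cannot be told apart either. Libraries A8 and A10 (AG221) and A16 (Rux) stood apart by low levels of transcripts rich in G and C. Log2 CPM fell by 0.38, 0.26 and 0.14 per 10 points of GC content in A8, A10 and A16, against slopes between -0.09 and 0.22 in the other 12 libraries. All 8 LSK markers listed were detected in each group, with a summed level of 3411 to 3670 CPM in WT, 1741 to 2675 CPM with vehicle and 2049 to 2961 CPM with combined treatment.

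Vehicle-treated mutant LSK cells were compared with WT LSK cells, where genotype cannot be told apart from sex or the letter. What the WT mice were given is not stated, so irradiation, transplantation and gavage may also differ between these groups. Transcripts of the feedback inhibitors Tnfaip3 and Nfkbia, the nuclear I-kappa-B genes Nfkbiz and Nfkbid and the subunits Rel and Nfkb1 were higher in mutant cells. The differences ran from 6.01-fold for Tnfaip3 down to 1.41-fold for Nfkb1. Relb and Bcl3 lay lower in every vehicle library than in any WT library without passing the test, and Nfkbie and Nfkb2 overlapped. In counts, 6 of 10 members were called higher and 0 lower, where the share of all tested genes called was 15.4% upward and 17.9% downward. A call is an adjusted p under 0.05 in the quasi-likelihood test of edgeR, with Benjamini-Hochberg adjustment over all tested genes. The groups did not overlap for 6 members that were higher and 2 that were lower, against 25.6% and 31.3% of all tested genes. The median log2 fold change was 0.66 over the 10 members and -0.09 over all tested genes. Because the members were chosen with earlier results of these data known, such contrasts with all genes are a description only.

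Tnfaip3 (ENSMUSG00000019850, chr10:19000910-19015657, minus strand, GRCm38) limits signaling by editing ubiquitin chains upstream of the kinase complex. It was at 30.3, 33.7 and 22.2 CPM in WT libraries B28, B30 and B31 and at 132, 163 and 223 CPM in vehicle libraries A1, A3 and A4. The lowest vehicle library was well above the highest WT library, and the log2 fold change was 2.59 ± 0.37 (SE; edgeR adjusted p = 0.000843). Nfkbia (ENSMUSG00000021025, chr12:55489410-55492647, minus strand) encodes I-kappa-B alpha, the main cytoplasmic inhibitor. It was at 76.1, 103 and 103 CPM in WT and at 402, 422 and 472 CPM with vehicle. These vehicle libraries were close to each other and separate from WT, with a log2 fold change of 2.20 ± 0.38 (edgeR adjusted p = 0.00285).

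Nfkbiz (ENSMUSG00000035356, chr16:55811375-55838899, minus strand), which encodes a nuclear I-kappa-B protein needed for a set of secondary response genes, was at 26.3, 23.5 and 19.7 CPM in WT and at 82.1, 135 and 82.9 CPM with vehicle. Its log2 fold change was 2.11 ± 0.42 (edgeR adjusted p = 0.00497). Nfkbid (ENSMUSG00000036931, chr7:30421732-30428746, plus strand), which encodes another nuclear member, was at 27.5, 23.6 and 27.4 CPM in WT and at 68.1, 86.2 and 50.7 CPM with vehicle, a log2 fold change of 1.39 ± 0.45 (edgeR adjusted p = 0.0318). For both of these nuclear I-kappa-B genes the groups were separate, with A3 the highest library. The call for Nfkbid was lost when any one of A1, A3, B28, B30 or B31 was left out, with a log2 fold change between 1.20 and 1.58, and also when at least 10 counts were required in every library (edgeR adjusted p = 0.0538).

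Among subunits, Rel (ENSMUSG00000020275, chr11:23736847-23770970, minus strand), the gene of c-Rel, was at 49.9, 59.1 and 53.0 CPM in WT and at 113, 97.9 and 78.3 CPM with vehicle. All vehicle libraries were above WT, and it rose by 0.84 ± 0.21 on the log2 scale (edgeR adjusted p = 0.0122). Nfkb1 (ENSMUSG00000028163, chr3:135584655-135691547, minus strand) was at 161, 149 and 159 CPM in WT and at 215, 240 and 203 CPM with vehicle, a smaller difference of 0.49 ± 0.13 on the log2 scale (edgeR adjusted p = 0.016) that was lost without B30 and under upper quartile scaling (edgeR adjusted p = 0.105). For comparison Rela, which encodes the p65 subunit, was at 92.9 to 99.4 CPM in WT and at 97.3 to 109 CPM with vehicle, and these ranges overlapped.

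Relb (ENSMUSG00000002983, chr7:19606217-19629438, minus strand), which encodes the subunit that pairs with p52 in the alternative pathway, ran the other way. It was at 8.53, 11.1 and 8.55 CPM in WT and at 3.20, 5.01 and 3.63 CPM with vehicle, a log2 fold change of -1.25 ± 0.53 (edgeR adjusted p = 0.0843). Bcl3 (ENSMUSG00000053175, chr7:19808462-19822770, minus strand) was at 3.56, 8.53 and 3.52 CPM in WT and at 2.29, 1.85 and 1.54 CPM with vehicle, a log2 fold change of -1.45 ± 0.56 (edgeR adjusted p = 0.0616). The groups of both genes were separate, and neither difference passed the threshold. Without A8, A10 and A16, libraries of other groups that share the estimate of spread, both were called lower, Relb at -1.23 (edgeR adjusted p = 0.00859) and Bcl3 at -1.43 (edgeR adjusted p = 0.0207), in a fit that tested 22662 genes and called 43.7% of them. With a GC content offset per library, Bcl3 was at -0.85 (edgeR adjusted p = 0.117), and DESeq2, which called 30.7% of the genes it adjusted, called it lower (adjusted p = 0.0386). Exons of Bcl3 overlap Gm16175 on the opposite strand over 6.51% of their length, and the strand setting of the counting is not stated. Nfkbie (ENSMUSG00000023947, chr17:45555703-45563169, plus strand), the gene of I-kappa-B epsilon, was at 46.4 to 49.3 CPM in WT and at 28.5 to 53.0 CPM with vehicle, a log2 fold change of -0.17 ± 0.23. Nfkb2 (ENSMUSG00000025225, chr19:46304320-46312385, plus strand), 11.6% and 6.52% of whose exons overlap AC114539.1 and Psd on the other strand, was at 28.6 to 32.7 and 20.5 to 36.0 CPM, a log2 fold change of -0.05 ± 0.55. The groups overlapped for both.

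**Figure D2:**
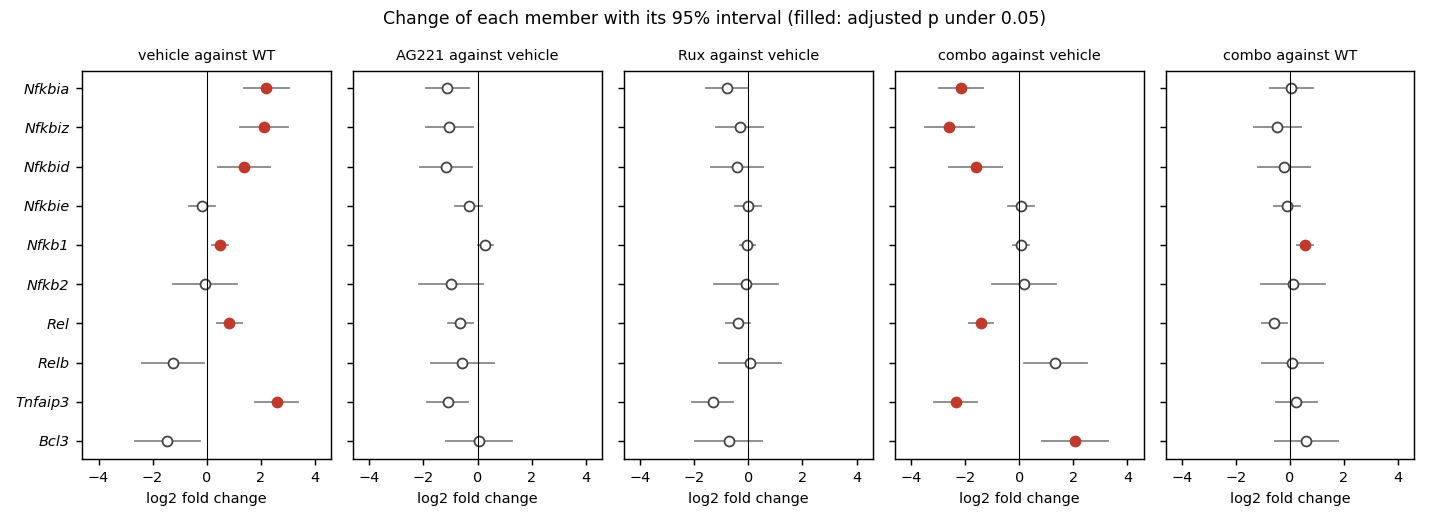
Log2 fold change of each gene (horizontal axis) with its 95% interval from edgeR's quasi-likelihood fit in 5 comparisons, filled where the adjusted p was under 0.05. Filled points lie to the right for 6 genes in vehicle against WT, to the left for 5 genes in combo against vehicle and at Nfkb1 alone in combo against WT.

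Other genes of the pathway moved unequally between vehicle and WT, where 15.4% of all tested genes were called higher and 17.9% lower. Of 15 tested ligand and receptor genes, 2 were higher, Tnf and Il1b, which encode inflammatory cytokines that activate the pathway, and 4 were lower. Tnf was at 2.33 to 3.45 CPM in WT and at 28.4 to 46.1 CPM with vehicle, a log2 fold change of 3.65 ± 0.37 (edgeR adjusted p = 6.3e-05). The lower ones were the receptors Tnfrsf11a, Cd40 and Tnfrsf13c and the ligand Tnfsf11, which vehicle libraries held at 0 to 0.0638 CPM, under the limit that a count of 0 allows. Of 26 adaptors and kinases, 6 were higher and 4 lower. The higher ones included Ikbkb, the catalytic kinase subunit, and the signaling genes Bcl10, Irak4 and Myd88, by 0.62 ± 0.11, 0.79 ± 0.12, 0.61 ± 0.14 and 0.53 ± 0.12 on the log2 scale. The lower ones were Malt1, Map3k7, Ripk1 and Irak1, with log2 fold changes from -1.38 to -1.08. Leaving out B30 ended each of these 4 calls. So did A1 for Map3k7, Ripk1 and Irak1, B28 for Ripk1 and Irak1, and A4 for Irak1. Without B30 the calls over all genes also fell, from 5937 to 1901. Among the receptors, the call of Cd40 was lost without A1, A4 or B30 and that of Tnfrsf13c without any library but A3. Of 8 other feedback regulators, Tax1bp1 (log2 fold change 0.66 ± 0.12) and Zc3h12a, an endonuclease gene (1.35 ± 0.26), were higher.

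Among 26 tested genes that NF-kB is known to induce, 13 were higher and 0 lower, with a median log2 fold change of 0.61. Over all tested genes 15.4% were called higher and 17.9% lower, which also stands beside the early response genes that follow. The 4 with the smallest adjusted p were Ier3, Ptgs2, Cxcl2 and Ccrl2. Cxcl2, a neutrophil chemokine gene, was at 0.0335 to 0.303 CPM in WT and at 43.0 to 92.1 CPM with vehicle, and Ptgs2, the gene of cyclooxygenase-2, at 0.539 to 0.972 and 23.1 to 50.7 CPM. Early response genes, which many stimuli induce within minutes, were higher as well. Of 23 tested, 15 were higher and 0 lower, with a median log2 fold change of 2.59, and Klf6, Atf3, Btg2 and Fosb led by adjusted p. Whether the early response and the NF-kB genes moved for a shared reason was not tested.

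Markers of other cells also differed between these groups, and their part in the results was not tested. In bulk samples a change in the share of a cell type and a change in RNA per cell cannot be told apart. Of 8 LSK markers, 1 was higher and 3 were lower with vehicle than in WT, beside 15.4% and 17.9% of all tested genes. Of 6 mast cell and basophil markers, 5 were higher with vehicle, and their summed level was 75.2 to 152 CPM in WT, 542 to 1005 CPM with vehicle and 260 to 424 CPM with combined treatment. Of 8 monocyte, macrophage and dendritic cell markers, 3 were higher, with sums of 489 to 542, 1031 to 1195 and 666 to 1089 CPM in the same order. Of 8 B lineage and plasma cell markers, 4 were lower, with sums of 517 to 1093, 56.6 to 62.0 and 56.2 to 97.5 CPM. Neutrophil markers were called higher for 2 of 8, with sums of 72.4 to 113, 77.5 to 182 and 42.5 to 134 CPM. Megakaryocyte markers were higher for 3 of 6, with sums of 587 to 740, 976 to 1295 and 584 to 1162 CPM. T and NK cell markers were higher for 1 of 8, with sums of 163 to 227, 413 to 459 and 367 to 404 CPM. Erythroid markers were called for 0 of 6, though their sums were 60.8 to 83.2, 100 to 272 and 128 to 274 CPM. Between combo and vehicle, 2 mast cell and basophil markers, 1 monocyte list marker and 1 megakaryocyte marker were lower, and 1 megakaryocyte marker was higher. Over all tested genes 4.21% were lower and 8.28% higher between these 2 groups. No marker of these lists was at 0 in every library of a group.

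Combined treatment was compared with vehicle in the mutant cells. The letter of the replicate names differs between these groups, so letter and treatment cannot be told apart here. Nfkbia, Tnfaip3, the nuclear I-kappa-B genes Nfkbiz and Nfkbid and the subunit Rel were lower with combined treatment. Bcl3 was higher, and Nfkbie was not called. Of 10 members, 5 were called lower and 1 higher, where 4.21% of all tested genes were called lower and 8.28% higher. The groups did not overlap for 5 members that were lower and 2 that were higher, against 15.2% and 19.5% of all tested genes. The median log2 fold change over the members was -0.67, beside 0.04 over all tested genes. This comparison shares the vehicle libraries with that of vehicle against WT, so opposite directions in the pair are not independent of each other.

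In combo libraries B24, B25 and B26, Nfkbiz was at 17.8, 13.3 and 19.1 CPM, all below the 3 vehicle libraries, and fell by 2.58 ± 0.42 on the log2 scale (edgeR adjusted p = 0.00283). Tnfaip3 was at 42.8, 32.8 and 25.8 CPM and fell by 2.35 ± 0.37 (edgeR adjusted p = 0.0023). Nfkbia was at 98.6, 87.0 and 107 CPM and fell by 2.15 ± 0.38 (edgeR adjusted p = 0.00378). For these 3 genes the highest combo library was below the lowest vehicle library. Nfkbid was at 23.3, 17.9 and 25.9 CPM and fell by 1.61 ± 0.45 (edgeR adjusted p = 0.0327), a call lost when A1, A3, B24, B25 or B26 was left out. Rel, the one subunit gene that fell, was at 43.3, 25.5 and 40.1 CPM, lower by 1.41 ± 0.21 on the log2 scale (edgeR adjusted p = 0.00227).

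Bcl3 was at 6.57, 10.99 and 6.24 CPM with combined treatment, above every vehicle library. Its log2 fold change was 2.07 ± 0.57 (edgeR adjusted p = 0.0309), and leaving out A1, A3, A4, B24 or B25 ended the call, with values between 1.75 and 2.22. With a GC content offset per library it was 1.36 (edgeR adjusted p = 0.0454). Relb was at 10.7, 10.99 and 8.28 CPM, also above every vehicle library, with a log2 fold change of 1.34 ± 0.54 (edgeR adjusted p = 0.125). It was called without A8, A10 and A16, at 1.30 (edgeR adjusted p = 0.00976), in a fit that called 15.3% of genes. Nfkb1 at 214 to 244 CPM, Nfkb2 at 29.4 to 35.1 CPM and Nfkbie at 36.4 to 50.2 CPM overlapped their vehicle ranges.

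In the wider pathway, Tnf was the 1 gene of 15 ligands and receptors called lower in this comparison, and 0 were called higher. It was at 1.31 to 3.76 CPM with combined treatment, a log2 fold change of -3.63 ± 0.37 (edgeR adjusted p = 0.000141). Over all tested genes 4.21% were called lower and 8.28% higher, which also stands beside the counts that follow. Of 26 adaptors and kinases, 5 were higher and 3 lower. Map3k7, which encodes the kinase TAK1, rose from 9.25 to 15.9 CPM with vehicle to 27.5 to 58.5 CPM (log2 fold change 1.90 ± 0.30). Irak1, Ripk1 and Tab2 were also higher, by 1.85 ± 0.41, 1.50 ± 0.36 and 0.74 ± 0.17, and Bcl10, Ikbkb and Birc2 were lower, by log2 fold changes of -0.45 ± 0.12, -0.42 ± 0.11 and -0.52 ± 0.14. The calls of these 3 lower genes were each lost in 5 of the 6 fits with 1 library left out, with B24 and B25 among those libraries each time. The call of Irak1 was lost without A1, that of Ripk1 without A1, B24 or B25, and that of Tab2 without A1, A3, B25 or B26. Among other feedback regulators, Otulin, the gene of a linear ubiquitin hydrolase, was higher (2.05 ± 0.42) and Zc3h12a lower (-1.54 ± 0.27). Of 26 induced targets, 9 were lower and 1 higher, with a median of -0.96. Ier3, Ptgs2, Cxcl2 and Ccrl2 led the lower ones, and Tnfaip2 was the higher one (2.34 ± 0.47). Of 23 early response genes, 14 were lower and 0 higher, with a median of -3.57, again led by Klf6, Atf3, Fosb and Btg2.

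Against WT, combined treatment left few member differences that passed the test. Only Nfkb1 was called, 1 of 10 members beside 3.25% of all tested genes. Its log2 fold change was 0.55 ± 0.13 (edgeR adjusted p = 0.0412). The call was lost whichever of the 6 libraries was left out and under 3 of the other settings. Leaving out 1 library also lowered the calls over all genes, from 579 to between 88 and 415. Rel lay below WT in every combo library, at a log2 fold change of -0.57 ± 0.21 (edgeR adjusted p = 0.119), as did Nfkbiz at -0.47 ± 0.40 (edgeR adjusted p = 0.487). Bcl3 was at 0.61 ± 0.55 (edgeR adjusted p = 0.504) and Relb at 0.09 ± 0.52 (edgeR adjusted p = 0.934). For Nfkbia the 95% interval of the difference from WT ran from -0.74 to 0.84 and for Tnfaip3 from -0.52 to 0.99 on the log2 scale, so that a remaining change of nearly 2-fold in Tnfaip3 lies within its interval. Of 26 induced targets, 2 were called higher and 0 lower, and of 15 ligands and receptors 1 was higher and 0 lower, beside the same 3.25%. Il1b was at 2.68 to 2.97 CPM with combined treatment and at 0.337 to 0.436 CPM in WT. Of the early response genes, 0 of 23 were called in this comparison by edgeR. None had an unadjusted p under 0.05, beside 4529 of all 17834 tested genes that did. Markers of other cells were called by edgeR as well, and their part in the results was not tested. Higher were 3 of 6 mast cell and basophil and 3 of 6 megakaryocyte markers. So were 1 of 8 T and NK cell and 1 of 8 monocyte list markers. Of 8 B lineage markers 3 were lower, and no LSK, neutrophil or erythroid marker was called. DESeq2 called 1 of the 10 members, also Nfkb1, beside 8.24% of the genes it adjusted.

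AG221 alone was compared with vehicle to ask what IDH2 inhibition changed. By edgeR 0 of 10 members were called, beside 0.987% of all tested genes. The unadjusted p was under 0.05 for 5 members, beside 4498 of all 17834 tested genes. DESeq2 called 2 members, Nfkbia and Tnfaip3, both lower, beside 15.4% of the genes it adjusted. The AG221 libraries lay below all vehicle libraries for 4 members, against 7.26% of all tested genes. Libraries within the group differed widely. Nfkbia was at 116, 361 and 122 CPM in A8, A9 and A10, Nfkbid at 15.3, 57.4 and 18.1 CPM, and Nfkb2 at 5.90, 31.3 and 6.87 CPM. A9 was the highest library for each of these genes, above the lowest by 3.11-fold, 3.75-fold and 5.31-fold, and within or just under the vehicle range. Tnfaip3 at 98.5, 78.8 and 63.2 CPM, Rel at 68.4, 63.8 and 54.5 CPM and Nfkbiz at 40.2, 70.8 and 34.3 CPM were below vehicle in all 3 libraries.

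The log2 fold changes of AG221 against vehicle were -1.18 ± 0.45 for Nfkbid, -1.11 ± 0.37 for Nfkbia, -1.11 ± 0.35 for Tnfaip3, -1.05 ± 0.40 for Nfkbiz and -0.63 ± 0.21 for Rel, with edgeR adjusted p between 0.0951 and 0.138. Those of Nfkb2 and Nfkb1 were -0.98 ± 0.56 (edgeR adjusted p = 0.281) and 0.28 ± 0.13 (edgeR adjusted p = 0.202). Without A9, 5 members were called, Nfkbia, Nfkbid, Nfkbiz and Nfkb2 lower and Nfkb1 higher, beside 24.4% of all genes in that fit, and the value for Nfkbia was -1.87. Without A8, A10 and A16, which leaves A9 alone in its group and assumes that it varies like the other groups, 0 members were called beside 0.0132% of genes, and the value for Nfkbia was -0.28, for Nfkbid -0.27, for Tnfaip3 -1.16 and for Rel -0.61. With a GC content offset per library the value for Nfkbia was -1.09 (edgeR adjusted p = 0.0671), and 0 members were called.

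The difference between libraries within the AG221 and Rux groups can be set beside the GC content of the members. Tested genes were split by GC content into 5 equal bins, and in the bin of highest content, from 54.8%, the mean of A8 and A10 lay below A9 by a median of -0.68 on the log2 scale, and A16 lay below the mean of A14 and A17 by -0.29. The members lie far apart in this property, from Rel at 42.5% and Nfkb1 at 44.9% to Nfkb2 at 59.4% and Bcl3 at 62.6%. In A8 and A10 relative to A9, Nfkb2 was at -2.28, Nfkbid at -1.78, Nfkbia at -1.60 and Bcl3 at -1.52, against -0.06 for Rel, 0.00 for Tnfaip3 and 0.38 for Nfkb1. Nfkbia has a GC content of 52.9%, in a bin with a median of only -0.15. Nfkbiz, at 50.1% GC in a bin with a median of -0.005, was at -0.93. Rela, at a GC content of 59.4%, was at -0.14, and Nfkbib, at 58.8%, was at -1.57. In A16 relative to A14 and A17, Relb was at -2.48, Nfkbiz at -1.76 and Tnfaip3, with 47.1% GC, at -1.18. Of the 5 members in the bin of highest GC content, Nfkb2, Nfkbid, Relb and Bcl3 were further from 0 than its median in both groups. Nfkbie, at 55.4% GC, was nearer to 0 than its median in both (-0.56 and -0.18), as was Rela, and the part of GC content in these levels was not tested.

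**Figure D3:**
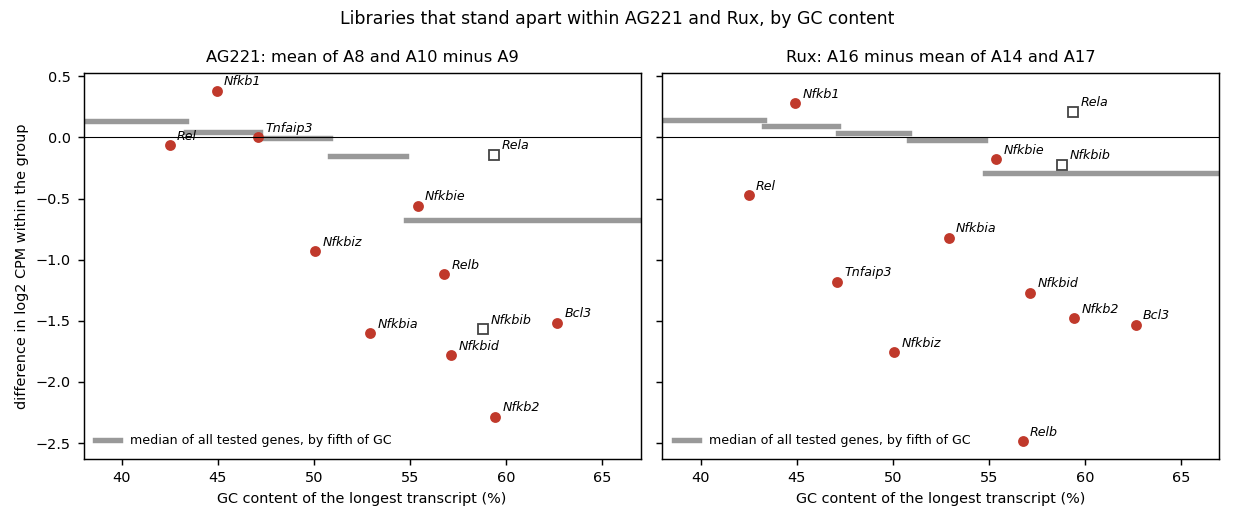
Difference in log2 CPM between libraries of the same group (vertical axis) against the GC content of the longest transcript in percent (horizontal axis), for the 10 members (filled circles) and for Rela and Nfkbib (open squares), with grey bars for the median of all tested genes in 5 equal bins of GC content. Nfkb2, Nfkbid and Bcl3 lie at -1.52 or lower in the AG221 panel, below the grey bar of -0.68 at their GC content. Nfkbib, at -1.57, also lies below this bar, and Rela lies above it.

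Ruxolitinib alone was compared with vehicle to ask what JAK inhibition changed. By edgeR 0 of 10 members were called, beside 0.0168% of all tested genes (3 genes). The unadjusted p was under 0.05 for 1 member, Tnfaip3, beside 813 of all 17834 tested genes. DESeq2 also called 0 members, beside 0.264% of genes. Tnfaip3 was at 113, 36.2 and 60.0 CPM in A14, A16 and A17, all below the vehicle libraries, with a log2 fold change of -1.31 ± 0.35 (edgeR adjusted p = 0.605). Nfkbia was at 339, 164 and 247 CPM, also below every vehicle library, at -0.79 ± 0.37. Nfkbiz at 118, 30.6 and 91.0 CPM, Nfkbid at 65.7, 26.2 and 61.2 CPM and Rel at 85.3, 58.7 and 77.7 CPM overlapped vehicle, at -0.33 ± 0.40, -0.42 ± 0.44 and -0.38 ± 0.21. A16 was the lowest of the 3 libraries for each of these 5 genes. Relb ran from 0.897 CPM in A16 to 7.58 CPM in A14, and Bcl3 from 0.427 to 2.12 CPM, where the count of Bcl3 in A16 was 10. With A8, A10 and A16 left out the value for Nfkbiz was 0.06 and that for Tnfaip3 -1.01, and 0 members were called.

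Both monotherapy groups were also compared with WT, which shares the WT libraries with the other comparisons against WT. Letter and group cannot be told apart in these comparisons. With AG221, 4 members were called higher and 1 lower, beside 22.2% and 28.5% of all tested genes. Cell markers moved too in this comparison, and their part in the results was not tested. Of 8 markers each, 6 neutrophil and 6 monocyte list markers were higher with AG221 and 6 LSK and 7 B lineage markers were lower. The summed neutrophil markers were at 361 to 507 CPM with AG221, the monocyte list at 1684 to 2485 CPM, the LSK list at 1894 to 2023 CPM and the B lineage list at 60.7 to 69.0 CPM. Of 6 mast cell and basophil markers, 5 were higher, with sums of 514 to 667 CPM. Tnfaip3 was higher by 1.48 ± 0.36 on the log2 scale, Nfkbia by 1.09 ± 0.37, Nfkbiz by 1.06 ± 0.40 and Nfkb1 by 0.77 ± 0.13, and Relb was at -1.82 ± 0.55 (edgeR adjusted p between 0.000769 and 0.0419). With Rux, 4 members were called higher and 1 lower, beside 16.1% and 16.2%. Here 4 of 8 neutrophil, 4 of 8 monocyte list, 5 of 6 erythroid and 4 of 6 mast cell and basophil markers were higher, and 2 of 8 LSK and 3 of 8 B lineage markers were lower. The neutrophil sums ran from 120 to 545 CPM and the monocyte list from 955 to 1701 CPM with Rux. Nfkbiz was higher by 1.79 ± 0.41, Nfkbia by 1.41 ± 0.37, Tnfaip3 by 1.28 ± 0.35 and Nfkb1 by 0.45 ± 0.13, and Bcl3 was at -2.19 ± 0.59 (edgeR adjusted p between 0.0089 and 0.0226). Several of these calls were lost when 1 library was left out. Leaving out B30 also lowered the calls over all genes, from 9040 to 6513 with AG221 and from 5759 to 1910 with Rux. Without A9 they rose to 10793 with AG221. With AG221 that of Nfkbia was lost without A9 (0.35), B28 or B30 and with only the groups compared (edgeR adjusted p = 0.0517), that of Nfkbiz without any library but A10 and with at least 10 counts in every library (edgeR adjusted p = 0.0607), and that of Relb without A8 or A10. With Rux that of Bcl3 was lost without A16, A17 or B30, that of Tnfaip3 without A14 or B31, that of Nfkbia without B28 or B30, and that of Nfkb1 without A16 or B30. The Nfkb1 call with Rux was also lost under upper quartile scaling and with filters at 1 and 10 counts, with edgeR adjusted p up to 0.115. Without A8, A10 and A16, Relb with AG221 (-1.17) and Nfkb1 with either drug (0.50 and 0.36) no longer passed.

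Combined treatment was also compared with each drug alone, and in these comparisons too the letter and the treatment cannot be told apart. Against AG221, 4 members were called lower and 2 higher, beside 14.3% and 18.9% of all tested genes. Of 8 markers each, 6 monocyte list and 3 neutrophil markers were lower and 2 LSK markers higher with the combination, and their part in the results was not tested. The monocyte list sum was at 1684 to 2485 CPM with AG221 and 666 to 1089 CPM with the combination, and the neutrophil sum at 361 to 507 and 42.5 to 134 CPM. Nfkbiz (-1.53 ± 0.41), Tnfaip3 (-1.25 ± 0.35), Nfkbia (-1.03 ± 0.37) and Rel (-0.78 ± 0.21) were lower, and Bcl3 (2.02 ± 0.57) and Relb (1.91 ± 0.55) were higher, with edgeR adjusted p between 0.0133 and 0.0457. Without A8, A10 and A16 the calls were 3, Nfkbia, Nfkbiz and Nfkbid, all lower, beside 0.481% of genes, and Rel at -0.83, Tnfaip3 at -1.24, Bcl3 at 1.16 and Relb at 1.24 were no longer called. With a GC content offset per library Bcl3 was at 0.79 (edgeR adjusted p = 0.154). Without B25 only Relb was called, beside 21.3% of genes, without A8 the calls of Tnfaip3, Relb and Bcl3 were lost, without A10 those of Relb and Bcl3, and without A9 that of Nfkbia (-0.28). With only the groups compared, the call of Nfkbia was also lost (edgeR adjusted p = 0.0979). Without B24 those of Nfkbia and Relb were lost, and without B26 those of Nfkbia and Tnfaip3. Against Rux, 3 members were called lower and 1 higher, beside 3.94% and 8.5%. Of 8 monocyte list markers 3 were lower, and of 6 erythroid markers 2. Nfkbiz (-2.26 ± 0.42), Nfkbia (-1.36 ± 0.37) and Rel (-1.03 ± 0.21) were lower and Bcl3 (2.80 ± 0.60) was higher, with edgeR adjusted p between 0.0039 and 0.0288. The call of Nfkbia was lost without A14, A17, B24, B25 or B26. The number of members called against Rux was 6 without A8, A10 and A16, beside 8.33% of genes.

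Whether the change with both drugs differed from the sum of the single-drug changes was tested as an interaction. Of the groups in it, only combo carries the letter B, so letter and combined treatment cannot be told apart. By edgeR 0 of 10 members were called, beside 8.42% of all tested genes. An unadjusted p under 0.05 was found for 2 members, beside 5700 of all 17834 tested genes. DESeq2 called 1 member, Bcl3, beside 22.9% of genes. The departure of Bcl3 was 2.75 ± 0.82 on the log2 scale (edgeR adjusted p = 0.052), that of Relb 1.86 ± 0.76 (edgeR adjusted p = 0.116), that of Nfkb2 1.23 ± 0.78 (edgeR adjusted p = 0.295) and that of Nfkbiz -1.21 ± 0.57 (edgeR adjusted p = 0.16). Leaving out A8, A10 and A16, the departure of Bcl3 was 1.50 and that of Relb 0.72. Without A9, Bcl3, Relb and Nfkb2 were called, beside 31.8% of all genes in that fit, and without A14, Bcl3 and Relb, beside 5.69%.

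Over the 15 libraries some members varied together, given here as a description, since the libraries share groups and some share low levels of GC-rich transcripts. Nfkbia correlated with Nfkbiz at Pearson's r = 0.91, with Nfkbid at 0.89, with Tnfaip3 at 0.85 and with Rel at 0.80 (log2 CPM, n = 15 libraries). Relb and Bcl3 correlated with each other at 0.89 and with Nfkbia at -0.31 and -0.43. Nfkb1 and Nfkb2, the precursor genes, correlated at -0.62. The inhibitors Nfkbia and Nfkbie correlated at -0.01.

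**Figure D4:**
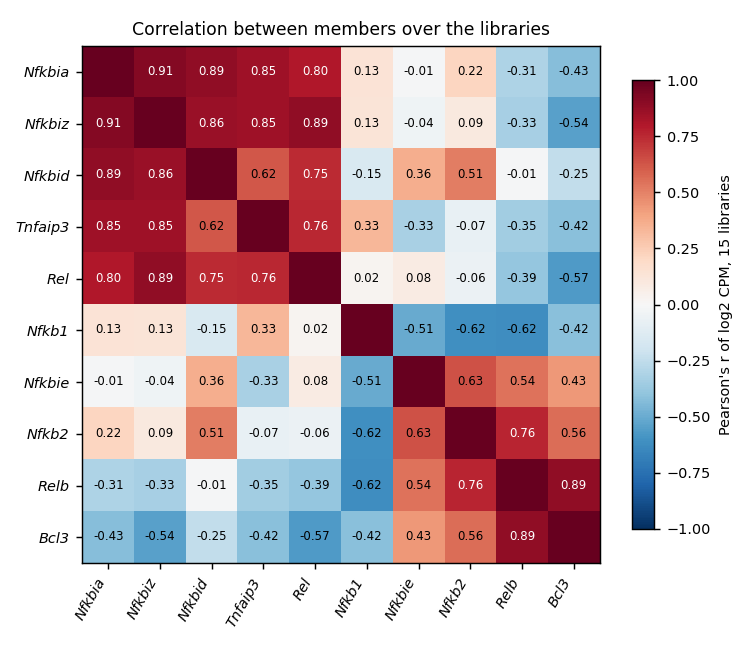
Pearson's r of log2 CPM between each pair of the 10 genes over the 15 libraries, from -1 (blue) to 1 (red). Nfkbia, Nfkbiz, Nfkbid, Tnfaip3 and Rel form a red block with values such as 0.91 and 0.85, and Relb and Bcl3 pair at 0.89.

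Among all tested genes, those most like each member over the 15 libraries were found by Pearson's r, which is the highest of many values and is therefore given as a ranking only. For Nfkbiz they were Trib1 (r = 0.97), Gm43817 (0.96) and Egr4 (0.96). For Tnfaip3 they were Phlda1 (0.93), Pik3cd (0.89) and Cd69 (0.88), for Nfkbia Gm15890 (0.95), Hist1h2bc (0.94) and Tnfrsf12a (0.94), and for Nfkbid Junb (0.96), Dnajb9 (0.95) and Vasp (0.94). For Rel they were Lnpep (0.92), 9330179D12Rik (0.90) and Gm17024 (0.90). Bcl3 ranked with Gramd4, Naa30 and Rmi2 (each 0.94), and Relb with Atp10a, Rsbn1 and Tnfrsf21 (each 0.97). Nfkb2 was nearest to Eml3, Sharpin and Mboat7 (each 0.98), of which Sharpin encodes a subunit of the linear ubiquitin ligase of the pathway. By Spearman's rho Sharpin was at 0.80, and 0 of these 3 genes were among the 3 nearest to Nfkb2. Nfkb1 was nearest to Abraxas1 (0.95), Dynlt1f (0.94) and Rpain (0.94), and Nfkbie to Sytl1 (0.91), Zfp287 (0.90) and Tcf7l2 (0.90). Of these 30 genes, 6 were also among the 3 nearest by Spearman's rho.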

How the data were processed

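RNA-seq counts of 15 libraries in 5 groups of 3 (WT, vehicle, AG221, Rux and combo, as the sample titles name them) were used. The authors deposited raw counts per Ensembl gene, made by aligning paired-end reads to mm10 with STAR (2.5.1a in the submitters' processing notes) and its own counting, from RNA amplified with the SMARTer protocol. The Ensembl release and the strand setting are not given in the sources used here. A table of DESeq2 (1.6.3) normalized values was deposited too and not used. Symbols, coordinates and lengths came from GENCODE release M21 (GRCm38), which named 44585 of 45232 IDs, and GC content from each gene's longest transcript, with a value for 99.5% of tested genes.

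All libraries entered 1 edgeR quasi-likelihood fit of the groups (edgeR 4.0.16, R 4.3.3) with TMM scaling and filterByExpr, and genes with a Benjamini-Hochberg adjusted p under 0.05 over the 17834 tested were called. SE is the log2 fold change over the root of F. Log2 CPM used a prior count of 2. The fit was tested on simulated counts of vehicle against WT. It recovered 25% of 100 genes changed 2-fold and 84% of 100 genes changed 4-fold, and called 4 unchanged genes. A member that was not called may therefore still differ by 2-fold. Alternatives were DESeq2 1.42.0, RLE and upper quartile scaling, other filters, only the groups compared, a 2-fold minimum and each library left out. Chosen after seeing the data were GC content offsets (lowess, span 0.3) and leaving out A8, A10 and A16. The kappaB consensus has 10 bases.

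The members and lists were chosen with earlier results of these data known. Named are all members in every comparison, up to 4 genes per pathway list and direction with the smallest adjusted p in vehicle against WT and combo against vehicle, the 3 genes with the highest Pearson r to each member, and Rela and Nfkbib.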

Additional observations from a re-analysis of the deposited data

How the results depend on the processing

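No paired analysis was possible because the groups share no replicate numbers. Of 33 member calls over the comparisons, 14 held whichever library was left out and 20 held under all 8 other fits. Those of Nfkbia, Nfkbiz, Rel and Tnfaip3 in vehicle against WT and combo against vehicle held under both. Upper quartile scaling shifted the median log2 fold change of all genes in combo against WT from 0.04 to -0.16 and in AG221 against vehicle from -0.01 to 0.18.

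For combo against WT, 0 members were called under upper quartile scaling, with all genes of at least 1 count, with at least 10 counts in every library, with a 2-fold minimum, and, at lowest and highest, without any 1 library (0 to 0). For AG221 against vehicle, DESeq2 called 2, and leaving out 1 library gave 0 to 5. For combo against AG221, 3 were called without A8, A10 and A16, and leaving out 1 library gave 1 to 8. The departure from additivity had 1 call under DESeq2, upper quartile scaling, the filter at 1 count and the filter at 10 counts, and 0 to 3 with 1 library left out. Over all genes the calls in these settings were 3671, 3124, 1878 and 2485, and 44 to 6087 with 1 library left out. Leaving out 1 library gave 3 to 6 calls for AG221 against WT and 2 to 5 for Rux against WT. The calls over all genes in these fits ran from 6479 to 10793 and from 1910 to 5074. With 1 library left out they ran from 0 to 4672 for AG221 against vehicle, where DESeq2 called 2247. For combo against AG221 they ran from 3002 to 8140, and for combo against WT from 88 to 415. Member counts thus changed along with the calls over all genes. The causes were not tested.

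Among uncalled values some changed sign. Nfkbie in vehicle against WT ranged from -0.33 to 0.073 with 1 library left out, and Nfkb2 from -0.22 to 0.16 (0.03 without B31) and was at 0.24 with GC content offsets. Relb in combo against WT was at -0.12 under upper quartile scaling and -0.040 with at least 10 counts in every library. Nfkbiz in Rux against vehicle was at 0.056 without A8, A10 and A16 and ranged from -0.72 to 0.063 with 1 library left out. Without A8, A10 and A16, Nfkb1 and Nfkb2 in AG221 against vehicle were at -0.0027 and 0.089, and the departure of Nfkb2 was at -0.23. Bcl3 and Relb were the shallowest members, and a count of 10 for Bcl3 in A16 limits its precision.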
